A study of Homo sapiens with 6 samples.

Results

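The genes described here are 10 inputs to mTORC1, the nutrient-sensing kinase complex mechanistic target of rapamycin complex 1, taken by symbol from a table of 33890 genes: SESN1, SESN2, SESN3, DDIT4, CASTOR1, RRAGC, RRAGD, DEPTOR, FLCN and RPTOR. All 10 had a row, matched through Ensembl identifiers and GENCODE 29 symbols. Their messenger RNA was measured by polyA RNA sequencing in LN229, a single established human glioblastoma line labelled grade IV glioma, grown in DMEM with fetal bovine serum. The tested group was 3 libraries of LN229 cells kept for 48 h with 800 µM ursodeoxycholic acid (UDCA), a bile acid prescribed for cholestasis. The other group was 3 libraries of LN229 cells labelled control, without UDCA. By its title the series asks about an anticancer action of UDCA in this tumour, and UDCA against control is its 1 comparison. Whether replicate libraries stem from independent cultures is not stated in the labels; p-values here therefore measure only library-to-library spread, which may be technical.

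mTORC1 sits on the lysosome and drives protein synthesis and growth when amino acids, energy and growth factors are sufficient. Amino acids reach it through the Rag GTPases, in which RagA or RagB pairs with RagC or RagD to bring the complex to the lysosomal surface. SESN2 and CASTOR1 are sensors that bind GATOR2 when leucine or arginine is scarce and so keep the Rags inactive. Folliculin (FLCN) acts on RagC and RagD, and DDIT4 (REDD1) acts through the TSC complex on the small GTPase RHEB. RPTOR and DEPTOR are subunits of the kinase complex, DEPTOR as an inhibitor. Several of these genes are themselves transcribed by stress factors such as ATF4 or by the lysosomal factors TFEB, TFE3 and MITF.

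The regulators fell into opposite directions after UDCA. SESN2, RRAGD, FLCN, RRAGC and DDIT4 were higher in the treated libraries, SESN3, DEPTOR, SESN1 and RPTOR were lower, and CASTOR1 was too low to test. In the fit across all genes, 9 of the 10 reached the minimum of 1 FPKM in at least 3 of the 6 libraries, and all 9 passed the test (adjusted p below 0.05, limma), 5 of them higher and 4 lower. Across the 14380 genes tested, 80.8% were called, 45.1% higher and 35.7% lower, so a call by itself sets these genes little apart. The libraries of both groups did not overlap for these 9 genes, as for 82.8% of all genes tested. The median absolute log2 change was 1.26 over the 9 and 0.53 over all genes tested, on the log2(FPKM + 1) scale, while the median signed change was 0.77 over the 9 and 0.10 over all genes tested. SESN3 and DEPTOR passed the minimum through the control libraries alone, since each was under 1 FPKM in all 3 UDCA libraries. The 10 genes were also chosen with earlier results of these data known. Counts and medians over the 9 therefore give no support for a change of the group.

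**Figure D1:**
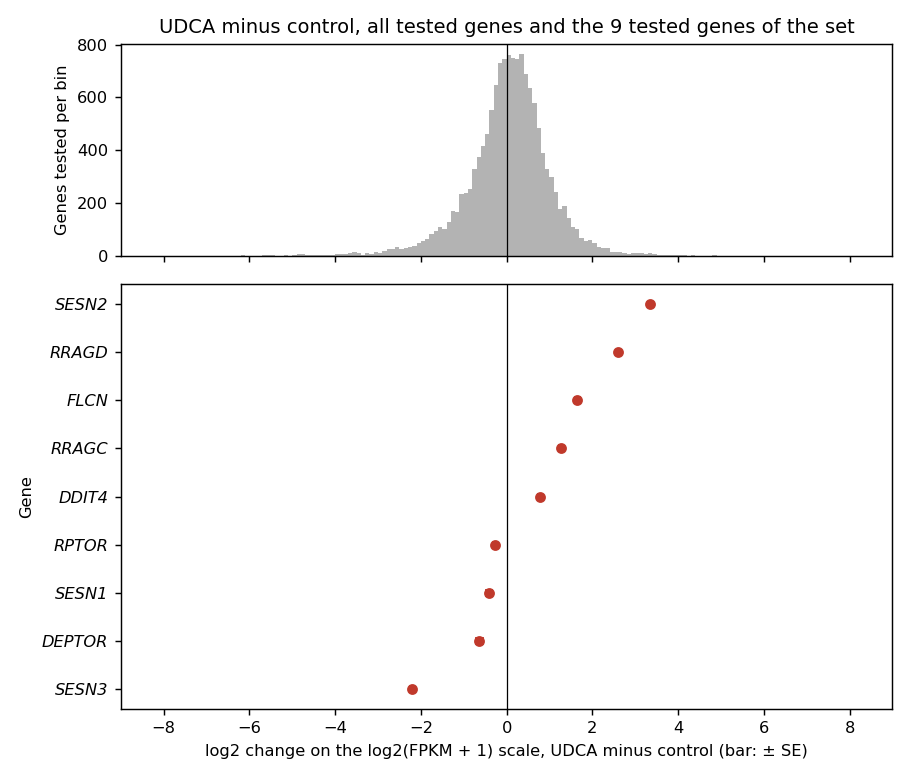
The upper panel counts the 14380 tested genes by their log2 change (UDCA minus control, log2(FPKM + 1) scale) and the lower panel plots the change of each of the 9 tested genes with its standard error. SESN2 at 3.35 and RRAGD at 2.61 lie in the right tail of all genes and SESN3 at -2.21 in the left tail, while RPTOR at -0.28 lies within the bulk.

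Library depth was alike in both groups, with 15988951 to 17045218 reads recovered per UDCA library and 16639832 to 17743022 per control library. FPKM are reads scaled to exon length and library total, which accounts for depth between libraries but not for a shift in RNA composition. Between genes they compare only roughly, since the length covers all annotated exons of a gene, merged, whichever are expressed. In a gene of 1 kb, 3 reads correspond to 0.169 to 0.188 FPKM. A lower FPKM means a smaller share of the RNA sequenced; RNA per cell was not measured, and fewer expressing cells cannot be told apart from less RNA per cell. Mitochondrially encoded genes took 0.0263% to 0.0271% of reads in the UDCA libraries and 3.13% to 3.16% in the control libraries, and with totals that leave these genes out the changes of the 9 genes kept their direction and their calls. Of 9 glioma and astroglial markers, 7 averaged at least 1 FPKM in each group, with summed levels of 164 to 167 FPKM in UDCA and 749 to 765 FPKM in control; GFAP was under 1 FPKM in every library and AQP4 was listed at 0 in all UDCA libraries and in all but 1 control library. Of these 7, S100B, SOX2, NES, VIM and CD44 fell, EGFR rose to 9.17 ± 0.142 FPKM in UDCA, against 6.74 ± 0.166 FPKM in control (adjusted p = 3.39e-05, limma), and OLIG2 did not pass at 4.81 ± 0.1598 FPKM in UDCA and 4.59 ± 0.509 FPKM in control. The part of these marker levels in the results below was not tested. The summed immune markers PTPRC and CD68 stayed at or under 0.046 FPKM in UDCA and 0.059 FPKM in control, the 3 endothelial markers summed to 0.585 to 0.682 FPKM in UDCA and 0.192 to 0.280 FPKM in control, and the 3 fibroblast and mural markers summed to 2.99 to 3.49 FPKM in UDCA and 3.42 to 3.89 FPKM in control. Of 3 neuronal markers, MAP2 was the single one above 1 FPKM, and the list summed to 5.23 to 5.56 FPKM in UDCA and 13.8 to 14.2 FPKM in control.

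**Figure D2:**
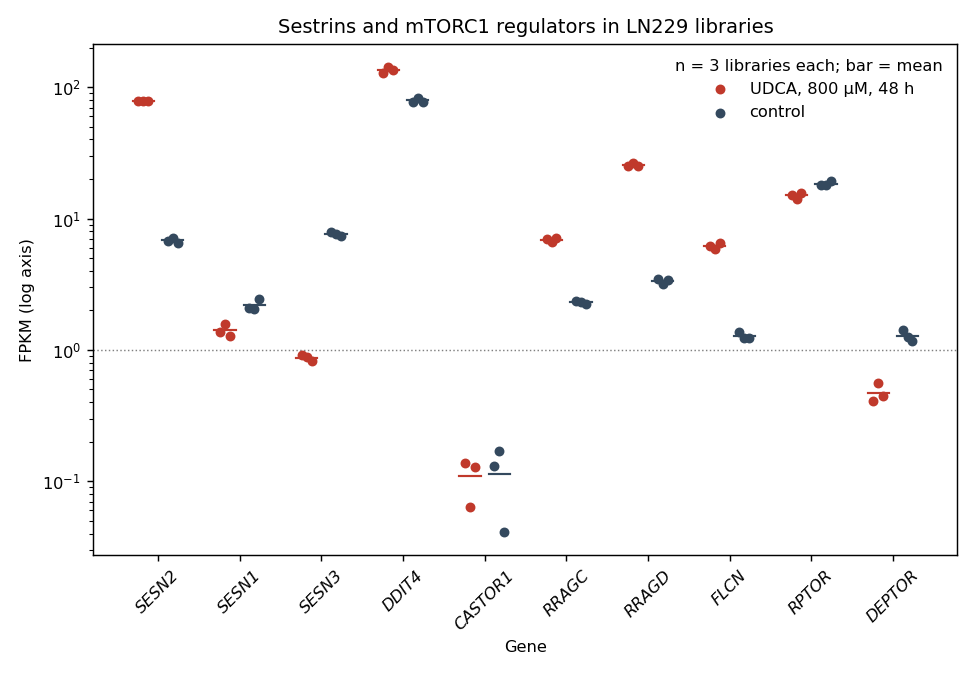
FPKM of each gene in each library on a log axis, UDCA libraries left of control libraries, with a bar at the mean of 3 libraries and a dotted line at 1 FPKM. SESN2, RRAGD, RRAGC, FLCN and DDIT4 stand higher in UDCA and SESN3, SESN1, RPTOR and DEPTOR lower, without overlap, while the CASTOR1 points of both groups mix near 0.1 FPKM.

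The promoters of SESN2, DDIT4, RRAGC and FLCN are shown because these genes rose in the same libraries; each is the 250 bases before the transcription start from RefSeq (GRCh38.p14), 5′ to 3′ on the gene's strand, with any E-box CACGTG, the letters bound by TFEB, TFE3 and MITF, in capitals.
SESN2, chr1:28259268-28259517, plus strand: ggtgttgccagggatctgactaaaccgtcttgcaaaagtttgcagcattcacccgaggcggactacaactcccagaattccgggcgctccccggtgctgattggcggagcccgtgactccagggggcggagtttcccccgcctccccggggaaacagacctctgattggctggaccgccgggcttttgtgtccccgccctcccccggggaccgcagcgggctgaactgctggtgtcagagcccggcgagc
DDIT4, chr10:72273674-72273923, plus strand: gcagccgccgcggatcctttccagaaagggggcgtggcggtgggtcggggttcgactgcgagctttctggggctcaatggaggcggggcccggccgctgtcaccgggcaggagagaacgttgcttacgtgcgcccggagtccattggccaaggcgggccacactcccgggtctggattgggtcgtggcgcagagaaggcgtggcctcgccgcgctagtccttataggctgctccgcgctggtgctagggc
RRAGC, chr1:38859773-38860022, minus strand: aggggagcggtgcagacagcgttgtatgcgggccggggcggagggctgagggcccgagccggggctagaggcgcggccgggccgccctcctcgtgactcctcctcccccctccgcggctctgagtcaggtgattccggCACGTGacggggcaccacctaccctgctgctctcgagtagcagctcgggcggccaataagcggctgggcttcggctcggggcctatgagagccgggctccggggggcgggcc
FLCN, chr17:17237169-17237418, minus strand: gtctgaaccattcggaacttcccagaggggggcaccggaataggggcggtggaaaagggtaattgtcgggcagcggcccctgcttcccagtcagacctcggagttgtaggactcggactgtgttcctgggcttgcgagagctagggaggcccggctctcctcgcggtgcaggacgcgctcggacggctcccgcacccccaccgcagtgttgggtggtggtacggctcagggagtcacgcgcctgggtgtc
RRAGC holds a single E-box, whose first base lies 112 bases before the start. In the RefSeq promoter table, 8 of the 10 genes had entries, in 10 windows, 3 of them for SESN1, and of these windows 1 held the E-box, against 6.34% of all 35116 windows of the same length. RRAGD, which also rose, and DEPTOR had no entry, so their promoters were not searched. The ATF4 element TGATGNAA and the FOXO element GTAAACA, each searched on both strands, were in none of the 10 windows, against 3.14% and 2.98% of all windows. The antioxidant response element TGACNNNGC was in the RRAGC window, where it overlaps the E-box, and in 1 SESN1 window, against 10.9% of all windows. The hypoxia response core ACGTG, which is also part of the E-box, was in the DDIT4 and RRAGC windows, against 18.5% of all windows. A match is a description of these letters, and a missing match says only that the letters are not in this window.

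The sestrins are stress-induced proteins that restrain mTORC1, and SESN2 is the family's best-studied leucine sensor. Its gene (ENSG00000130766, chromosome 1, 28259527 to 28282491, GRCh38) was the most changed of the 10. SESN2 was measured at 78.1, 78.8 and 78.8 FPKM in the UDCA libraries, against 6.77, 7.14 and 6.55 FPKM in the control libraries. The treated libraries lay within 1 FPKM of each other and far above every control library. The means were 78.6 ± 0.388 FPKM in UDCA and 6.82 ± 0.299 FPKM in control (SD, n = 3 each), an 11.5-fold difference on 13572 and 1214 reads, with a log2 change of 3.35 ± 0.0324 (SE, adjusted p = 1.08e-09, limma). It ranked 62 from the largest rise among the 14380 genes tested.

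SESN3, a sestrin gene known as a target of FOXO factors, moved the other way. It stood at 0.911, 0.882 and 0.819 FPKM in UDCA, against 7.95, 7.64 and 7.43 FPKM in control. All treated libraries were under 1 FPKM and all control libraries above 7 FPKM, although the lower level still rested on 460 reads in all. SESN3 (ENSG00000149212, chromosome 11, 95165513 to 95232541) averaged 0.871 ± 0.0470 FPKM in UDCA and 7.67 ± 0.262 FPKM in control, 8.81-fold lower with UDCA (log2 change -2.21 ± 0.0513 SE, adjusted p = 4.19e-08). It ranked 416 from the largest fall among the genes tested.

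SESN1, the stress-induced sestrin gene that founded the family, fell by less. Its levels were 1.37, 1.58 and 1.28 FPKM in UDCA, against 2.10, 2.07 and 2.42 FPKM in control. The groups did not overlap, but both were low, on 361 and 581 reads. SESN1 (ENSG00000080546, chromosome 6, 108986437 to 109094819) averaged 1.41 ± 0.156 FPKM in UDCA and 2.20 ± 0.196 FPKM in control, 1.56-fold lower (log2 change -0.41 ± 0.0787 SE, adjusted p = 0.00232). Values are per gene, so its alternative starts cannot be separated.

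These opposite changes altered which sestrin had the largest share in FPKM. Summed over the family, sestrin transcripts reached 80.4, 81.3 and 80.9 FPKM in UDCA, against 16.8, 16.8 and 16.4 FPKM in control. SESN2 supplied 97.2% ± 0.220 of that sum in UDCA and 40.9% ± 1.33 in control, whereas SESN3 supplied 1.08% ± 0.0606 in UDCA and 46.0% ± 1.11 in control, and SESN1 1.74% ± 0.187 in UDCA and 13.2% ± 1.39 in control. SESN3 was thus the largest share in control by a small margin and the smallest in UDCA. Ranks this close depend on the exon length used for each gene, while the changes of each share between groups were large. The log2 ratio of SESN2 to SESN1 (each FPKM + 1) was 5.05 ± 0.0911 in UDCA and 1.29 ± 0.137 in control, and that of SESN3 to SESN1 was -0.36 ± 0.0805 in UDCA and 1.44 ± 0.123 in control. Each ratio differed without overlap, and the exact 2-sided permutation test gave p = 0.1 for both and for the Rag ratio below, which is the smallest that 3 libraries against 3 allow (adjusted p = 0.1 over the 3 ratios tested).

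**Figure D3:**
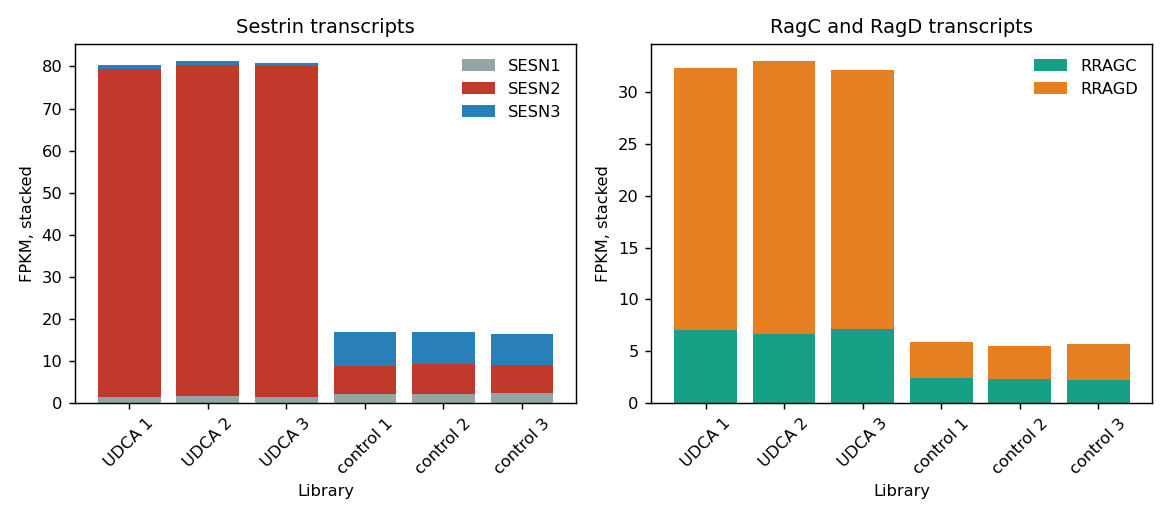
Stacked FPKM of the 3 sestrin genes (left) and of RRAGC and RRAGD (right) in each library, UDCA libraries left of control libraries. The sestrin sum is about 80 FPKM and nearly all SESN2 in UDCA, and about 17 FPKM shared mainly by SESN2 and SESN3 in control; the RRAGC and RRAGD sum averages 32.5 FPKM in UDCA and 5.67 FPKM in control.

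The genes whose profile over the 6 libraries lay closest to SESN2, by the root mean square difference of log2(FPKM + 1) after subtracting the control mean, were SQSTM1, the autophagy receptor p62, at 0.0369, CXCL1, a chemokine, at 0.0391, and DNAJB9, a chaperone of the endoplasmic reticulum, at 0.0413. SQSTM1 averaged 434 ± 12.6 FPKM in UDCA and 42.3 ± 1.16 FPKM in control. CXCL1 averaged 337 ± 3.34 FPKM in UDCA and 31.7 ± 1.55 FPKM in control, and DNAJB9 averaged 53.4 ± 1.90 FPKM in UDCA and 4.28 ± 0.132 FPKM in control. With 2 groups of 3 libraries, likeness of profile here means little more than a like size of change.

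DDIT4, the stress-induced gene of REDD1, had the highest FPKM of the 10 in both groups. It stood at 129, 142 and 136 FPKM in UDCA, against 77.4, 82.9 and 77.7 FPKM in control. Every treated library exceeded every control library, though by a smaller factor than for SESN2. DDIT4 (ENSG00000168209, chromosome 10, 72273920 to 72276036) averaged 136 ± 6.29 FPKM in UDCA and 79.3 ± 3.08 FPKM in control, 1.71-fold higher with UDCA (log2 change 0.77 ± 0.0418 SE, adjusted p = 2.7e-06). Of its exon bases 41.2% lie in exons of the antisense gene DDIT4-AS1, and since the authors' treatment of strand is not given in the sources used here, reads of the pair may be mixed. Its relative DDIT4L stayed under 1 FPKM, at 0.333 ± 0.0693 FPKM in UDCA and 0.143 ± 0.132 FPKM in control, and was not tested.

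CASTOR1, the cytosolic arginine sensor, was barely detected. It had 0.137, 0.0641 and 0.129 FPKM in UDCA, against 0.131, 0.169 and 0.0410 FPKM in control. The groups overlapped, on 15 reads in all UDCA libraries and 16 in all control libraries, and the level of 3 reads in this gene is 0.0616 to 0.0683 FPKM, so no difference was detectable at this depth. CASTOR1 (ENSG00000239282, chromosome 22, 30285117 to 30289627) also shares 46.0% of its exon bases with AC004997.1 on the same strand. Without the minimum level its change was not called (adjusted p = 0.970). Among the other amino acid sensors, 4 were tested, 2 higher, 1 lower and 1 not passing. Of these 75.0% were called, against 80.8% of all genes tested. SLC38A9, the lysosomal arginine transporter that signals to the Rags, rose 2.62-fold, to 3.53 ± 0.156 FPKM in UDCA, against 1.35 ± 0.0692 FPKM in control (adjusted p = 4.96e-06). LARS, leucyl-tRNA synthetase, rose 1.95-fold, to 60.7 ± 0.419 FPKM in UDCA, against 31.1 ± 0.521 FPKM in control (adjusted p = 3.77e-08). CASTOR2, the partner of CASTOR1, fell 2.64-fold, to 0.582 ± 0.186 FPKM in UDCA, against 1.54 ± 0.0909 FPKM in control (adjusted p = 0.000688); it passed the minimum through the control libraries alone, and CASTOR3P, a pseudogene of the family, may share its reads. BMT2, the S-adenosylmethionine sensor SAMTOR, did not pass at 6.41 ± 0.303 FPKM in UDCA and 6.88 ± 0.756 FPKM in control.

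The Rag GTPases split by subunit. RRAGD, encoding RagD, had 25.3, 26.4 and 25.0 FPKM in UDCA, against 3.48, 3.19 and 3.41 FPKM in control. All treated libraries were at or above 25 FPKM, and no control library reached 4 FPKM. RRAGD (ENSG00000025039, chromosome 6, 89364636 to 89412270) averaged 25.6 ± 0.716 FPKM in UDCA and 3.36 ± 0.155 FPKM in control, 7.61-fold higher with UDCA (log2 change 2.61 ± 0.0402 SE, adjusted p = 7.27e-09), and ranked 151 from the largest rise. No exon base of it overlaps another annotated gene.

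RRAGC, encoding RagC, which shares its role with RagD, rose by a smaller factor. It had 7.01, 6.64 and 7.13 FPKM in UDCA, against 2.37, 2.32 and 2.25 FPKM in control. Both sets of libraries were tight and apart from each other. RRAGC (ENSG00000116954, chromosome 1, 38838198 to 38859823) averaged 6.93 ± 0.252 FPKM in UDCA and 2.31 ± 0.0630 FPKM in control, 2.99-fold higher (log2 change 1.26 ± 0.0462 SE, adjusted p = 3.68e-07); 22.9% of its exon bases lie in exons of AL139260.2 on the same strand. RRAGD supplied 78.7% ± 1.07 of the RRAGC and RRAGD sum in UDCA and 59.2% ± 1.22 in control, and the log2 ratio of RRAGD to RRAGC was 1.75 ± 0.0849 in UDCA and 0.40 ± 0.0548 in control.

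Neither partner subunit gave a rise that passed the test. RRAGA, encoding RagA, fell 1.30-fold, to 55.8 ± 3.35 FPKM in UDCA, against 72.6 ± 1.70 FPKM in control (adjusted p = 0.000167), and RRAGB did not pass at 5.72 ± 0.378 FPKM in UDCA and 5.28 ± 0.234 FPKM in control. The RRAGC and RRAGD sum came to 0.530 ± 0.0319 of the RRAGA and RRAGB sum in UDCA and 0.0729 ± 0.00344 in control. Of the 5 Ragulator subunits, the lysosomal anchor of the Rags, 3 fell, 1 rose and 1 did not pass. In the whole Rag and Ragulator list of 9 genes 77.8% were called, against 80.8% of all genes tested. LAMTOR2 fell to 15.2 ± 0.689 FPKM in UDCA, against 30.4 ± 1.79 FPKM in control (adjusted p = 2.33e-06). LAMTOR1 fell to 23.2 ± 0.206 FPKM in UDCA, against 36.1 ± 1.52 FPKM in control, and LAMTOR4 to 20.5 ± 0.914 FPKM in UDCA, against 27.8 ± 0.811 FPKM in control. LAMTOR3 rose to 9.06 ± 0.157 FPKM in UDCA, against 7.21 ± 0.491 FPKM in control, and LAMTOR5 stood at 10.45 ± 1.196 FPKM in UDCA and 10.0 ± 0.647 FPKM in control. Over the 9 genes of the Rag and Ragulator list the median log2 change was 0.05, against 0.10 over all genes tested.

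FLCN encodes folliculin, the GTPase-activating protein for RagC and RagD that works in a complex with FNIP1 or FNIP2. FLCN had 6.19, 5.83 and 6.51 FPKM in UDCA, against 1.37, 1.24 and 1.24 FPKM in control. The lowest treated library was more than 4 FPKM above the highest control library. FLCN (ENSG00000154803, chromosome 17, 17212212 to 17237188) averaged 6.18 ± 0.340 FPKM in UDCA and 1.28 ± 0.0749 FPKM in control, 4.81-fold higher with UDCA on 3023 and 647 reads (log2 change 1.65 ± 0.0580 SE, adjusted p = 2.96e-07). Its exons share 11.9% of their bases with AC055811.2 on the same strand, which was at 0.462 ± 0.0508 FPKM in UDCA and 0.137 ± 0.0328 FPKM in control. FNIP1 rose 3.16-fold, to 16.9 ± 0.913 FPKM in UDCA, against 5.34 ± 0.386 FPKM in control (adjusted p = 5.03e-07), while FNIP2 fell 1.59-fold, to 1.75 ± 0.0769 FPKM in UDCA, against 2.80 ± 0.189 FPKM in control (adjusted p = 0.000351). FNIP1 thereby made up 90.6% ± 0.797 of the FNIP sum in UDCA and 65.6% ± 1.13 in control. Outside the 10 genes, motifs were looked up for FNIP1 and FNIP2 alone. The FNIP1 promoter window held the E-box, as did 6.34% of all windows, and those of FLCN and FNIP2 did not. The hypoxia response core, which is part of the E-box, was in the FNIP1 and FNIP2 windows, against 18.5% of all windows.

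RPTOR encodes raptor, the subunit that presents substrates to mTORC1. It had 15.2, 14.2 and 15.6 FPKM in UDCA, against 17.9, 18.2 and 19.3 FPKM in control. The groups were apart, but by the smallest factor of the 9 tested genes. RPTOR (ENSG00000141564, chromosome 17, 80544819 to 80966371) averaged 15.0 ± 0.730 FPKM in UDCA and 18.4 ± 0.770 FPKM in control, 1.23-fold lower (log2 change -0.28 ± 0.0454 SE, adjusted p = 0.000927).

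DEPTOR encodes a subunit that inhibits both mTOR complexes. It had 0.406, 0.559 and 0.449 FPKM in UDCA, against 1.42, 1.26 and 1.16 FPKM in control. All treated libraries were under 1 FPKM and all control libraries just above it. DEPTOR (ENSG00000155792, chromosome 8, 119873717 to 120050913) averaged 0.471 ± 0.0793 FPKM in UDCA and 1.28 ± 0.131 FPKM in control, 2.72-fold lower by the ratio of means (log2 change -0.63 ± 0.0846 SE, adjusted p = 0.00034) on only 62 and 173 reads. The log2 change is smaller than the fold because 1 was added to each FPKM, and with 0.1 added in its place it was -1.28.

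The other subunits of the mTOR complexes went both ways. Of 9 tested members of that list, RPTOR and DEPTOR included, 4 were higher, 4 lower and 1, TELO2, did not pass. PRR5 and PRR5L stayed under the minimum level and were not tested. The called share was 88.9%, against 80.8% of all genes tested. AKT1S1, the inhibitory subunit PRAS40, fell 2.33-fold, to 9.56 ± 0.247 FPKM in UDCA, against 22.3 ± 0.0879 FPKM in control (adjusted p = 5.92e-08). MTOR, the kinase itself, fell 1.57-fold, to 6.41 ± 0.149 FPKM in UDCA, against 10.1 ± 0.234 FPKM in control (adjusted p = 4.93e-06). The higher ones were RICTOR, the defining subunit of the second complex mTORC2, at 7.54 ± 0.471 FPKM in UDCA and 4.83 ± 0.0772 FPKM in control, MLST8, TTI1 and MAPKAP1. The call of MAPKAP1, at 15.7 ± 0.267 FPKM in UDCA and 14.7 ± 0.558 FPKM in control, was lost without UDCA replicate 1 (adjusted p = 0.111), 2 (0.0551) or 3 (0.103) and without control replicate 1 (0.133) or 3 (0.0802). With quantile normalization the log2 change of MAPKAP1 was 0.0034 (adjusted p = 0.929) and with median-ratio scaling 0.0053 (0.899).

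The order of FPKM among the 10 genes differed between the groups. This order depends on the exon length used for each gene, a length that is the same in both groups. In UDCA it ran DDIT4, SESN2, RRAGD, RPTOR, RRAGC, FLCN, SESN1, SESN3, DEPTOR and CASTOR1, and no neighbours in that order overlapped between libraries. In control it ran DDIT4, RPTOR, SESN3, SESN2, RRAGD, RRAGC, SESN1, FLCN, DEPTOR and CASTOR1, where RRAGC and SESN1 overlapped, as did FLCN and DEPTOR. SESN3 thus took place 8 in UDCA and place 3 in control.

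Upstream of the Rags, GATOR2, the complex that sestrins and CASTOR1 bind, had 4 of 5 members higher and none lower, so that 80.0% were called, against 80.8% of all genes tested, and its median log2 change was 0.39, against 0.10 over all genes tested. MIOS was 9.40 ± 0.194 FPKM in UDCA and 4.70 ± 0.203 FPKM in control (adjusted p = 1.41e-06), and SEC13, which also serves in vesicle coats, was 40.0 ± 0.737 FPKM in UDCA and 25.8 ± 0.923 FPKM in control (adjusted p = 2.15e-06). SEH1L and WDR59 rose by less, to 5.05 ± 0.403 and 6.45 ± 0.203 FPKM in UDCA, against 3.60 ± 0.0742 and 5.00 ± 0.409 FPKM in control. WDR24 did not pass at 5.57 ± 0.414 FPKM in UDCA and 5.22 ± 0.131 FPKM in control, though it did without UDCA replicate 2 (adjusted p = 0.0455). In GATOR1, the brake on RagA and RagB, and KICSTOR, its lysosomal tether, 2 of 5 tested members were higher, 2 lower and 1, NPRL3, did not pass. Here too 80.0% were called, against 80.8% of all genes tested. C12orf66 rose 2.51-fold, to 6.96 ± 0.466 FPKM in UDCA, against 2.77 ± 0.107 FPKM in control, while KPTN fell 1.63-fold, both of KICSTOR. The other calls were NPRL2 higher and ITFG2 lower, and DEPDC5 stayed under the minimum level.

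**Figure D4:**
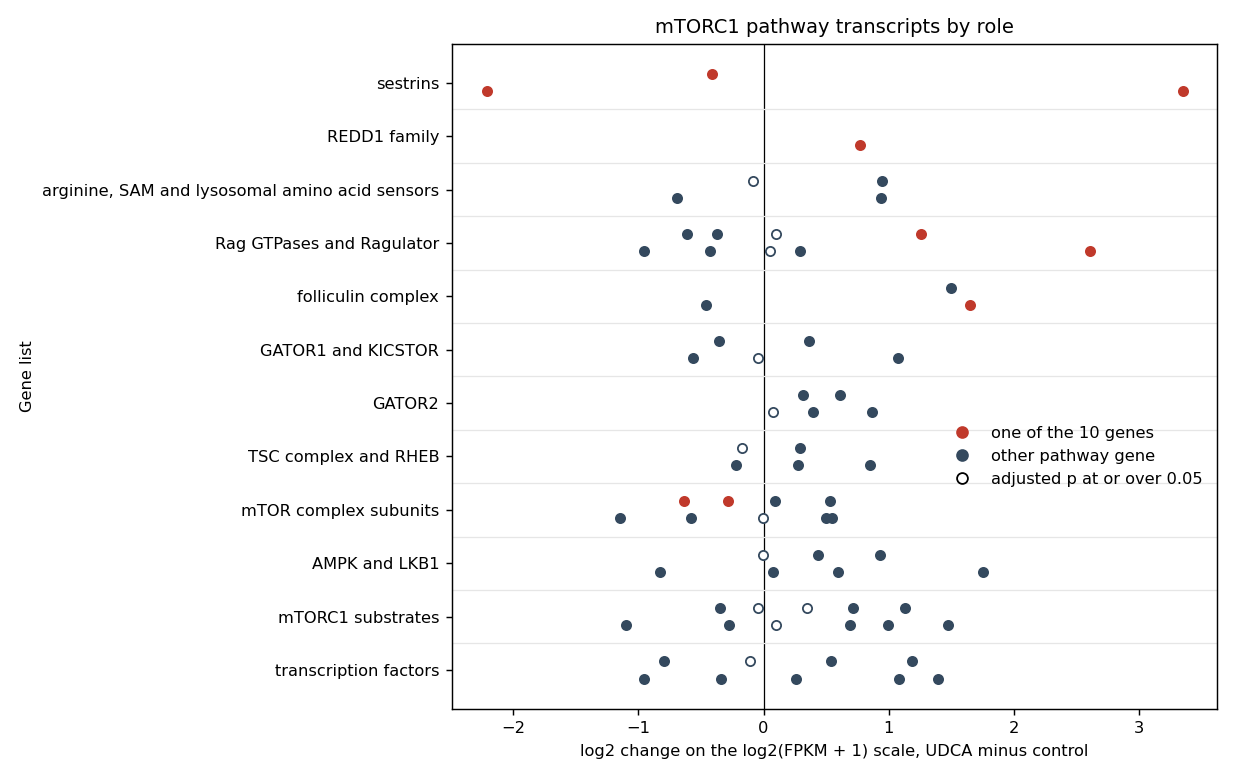
Log2 change (UDCA minus control, log2(FPKM + 1) scale) of each tested gene, by list, with the 10 genes of this account in red, other pathway genes in dark blue, and open symbols for an adjusted p at or over 0.05. The red points include both extremes of the plot, SESN2 at 3.35 and SESN3 at -2.21, and most lists hold genes on both sides of 0.

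The TSC complex, the GTPase-activating complex through which DDIT4 acts, and its target RHEB, the direct activator of mTORC1, had 3 of 5 tested members higher and 1 lower. Of this list 80.0% were called, against 80.8% of all genes tested. RHEB rose 1.83-fold, to 63.0 ± 0.684 FPKM in UDCA, against 34.5 ± 0.423 FPKM in control (adjusted p = 5.15e-08). TSC1 was 3.36 ± 0.114 FPKM in UDCA and 2.60 ± 0.126 FPKM in control, and TSC2 was 10.2 ± 0.417 FPKM in UDCA and 8.18 ± 0.290 FPKM in control, both called. TBC1D7, a small subunit, was lower at 1.51 ± 0.183 FPKM in UDCA and 1.92 ± 0.0778 FPKM in control (adjusted p = 0.0306), a call lost without UDCA replicate 1 (0.0816) or control replicate 1 (0.0726) or 3 (0.0826), or with no minimum level (0.0778). RHEBL1 did not pass at 2.79 ± 0.571 FPKM in UDCA and 3.23 ± 0.263 FPKM in control.

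AMPK, the energy sensor that restrains mTORC1 and that sestrins are known to bind, had 5 of 7 tested list members higher, 1 lower, and 1, the upstream kinase gene STK11, not passing, so that 85.7% were called, against 80.8% of all genes tested. PRKAB2, a regulatory subunit, rose 3.53-fold, to 55.0 ± 1.31 FPKM in UDCA, against 15.6 ± 0.0881 FPKM in control (adjusted p = 5.26e-09). PRKAG2 rose 2.28-fold, to 5.42 ± 0.226 FPKM in UDCA, against 2.37 ± 0.234 FPKM in control (adjusted p = 1.09e-05). The catalytic subunits parted: PRKAA1 fell 1.83-fold, to 11.97 ± 1.02 FPKM in UDCA, against 21.9 ± 0.952 FPKM in control, while PRKAA2 rose 1.74-fold, to 4.01 ± 0.244 FPKM in UDCA, against 2.31 ± 0.0662 FPKM in control. PRKAB1 was also higher. The call of PRKAG1 rested on a small difference, 21.3 ± 0.295 FPKM in UDCA and 20.2 ± 0.510 FPKM in control, and was lost without UDCA replicate 1 (adjusted p = 0.0565), 2 (0.108) or 3 (0.0632) or control replicate 1 (0.0699) or 3 (0.113), and its direction turned with median-ratio scaling (log2 change -0.010).

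Among 11 substrates of mTORC1, 5 were higher, 3 lower and 3 did not pass. The called share was 72.7%, against 80.8% of all genes tested. ULK1, the kinase that starts autophagy, rose 3.03-fold, to 20.6 ± 0.410 FPKM in UDCA, against 6.79 ± 0.393 FPKM in control (adjusted p = 1.34e-07). The translation repressors parted: EIF4EBP1 rose 2.21-fold, to 178 ± 6.19 FPKM in UDCA, against 80.5 ± 2.93 FPKM in control (adjusted p = 1.83e-07), and EIF4EBP2 fell 2.25-fold, to 10.5 ± 0.181 FPKM in UDCA, against 23.6 ± 0.174 FPKM in control (adjusted p = 4.6e-08). GRB10, LARP1 and MAF1 were the other genes higher, and both S6 kinase genes, RPS6KB1 and RPS6KB2, were lower, by 1.25-fold and 1.34-fold. ATG13, LPIN1 and EIF4EBP3 did not pass. LPIN1 did with voom on recovered reads (adjusted p = 0.0202, limma) and without UDCA replicate 2 (0.0393). EIF4EBP3, which shares 73.4% of its exon bases with a readthrough gene, did without UDCA replicate 2 (0.0136) or control replicate 2 (0.0498). Transcript levels give no measure of mTORC1 activity, which acts on these proteins by phosphorylation. Over the 53 tested pathway genes of 57 reported, leaving out the 10 genes and the transcription factors, 42 were called, 27 higher and 15 lower, or 79.2%, close to the 80.8% of all genes tested.

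Of the transcription factors known to act on the 10 genes, 8 of the 9 reported were called, 5 higher and 3 lower, or 88.9%, against 80.8% of all genes tested. ATF4, known to act on SESN2 and DDIT4, rose 2.64-fold, to 450 ± 16.3 FPKM in UDCA, against 170 ± 3.28 FPKM in control (adjusted p = 3.1e-08). NFE2L2, the antioxidant factor NRF2, rose 2.33-fold, to 49.3 ± 2.26 FPKM in UDCA, against 21.1 ± 0.106 FPKM in control. HIF1A, the hypoxia factor that acts on DDIT4, fell 1.74-fold, to 55.4 ± 3.17 FPKM in UDCA, against 96.5 ± 0.818 FPKM in control.

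The lysosomal factors, for which RRAGC, RRAGD and FLCN are known target genes, did not move as a block. TFE3 rose 2.18-fold, to 43.3 ± 0.799 FPKM in UDCA, against 19.9 ± 0.334 FPKM in control (adjusted p = 4.18e-08), and TFEB rose 1.84-fold, to 2.13 ± 0.184 FPKM in UDCA, against 1.15 ± 0.0557 FPKM in control (adjusted p = 0.000288). MITF fell 2.28-fold, to 2.76 ± 0.109 FPKM in UDCA, against 6.28 ± 0.402 FPKM in control (adjusted p = 4.01e-06). TFE3 made up 89.9% ± 0.682 of the sum of these 3 in UDCA and 72.8% ± 0.689 in control. Of the FOXO genes, whose products act on SESN3, FOXO1 fell 1.34-fold, to 3.29 ± 0.210 FPKM in UDCA, against 4.42 ± 0.333 FPKM in control (adjusted p = 0.00236). FOXO3 rose 1.22-fold, to 10.4 ± 0.306 FPKM in UDCA, against 8.51 ± 0.270 FPKM in control (adjusted p = 0.000561), and FOXO4 did not pass at 2.39 ± 0.236 FPKM in UDCA and 2.67 ± 0.470 FPKM in control. Whether any of these factors acted on the 10 genes here was not tested.

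**Figure D5:**
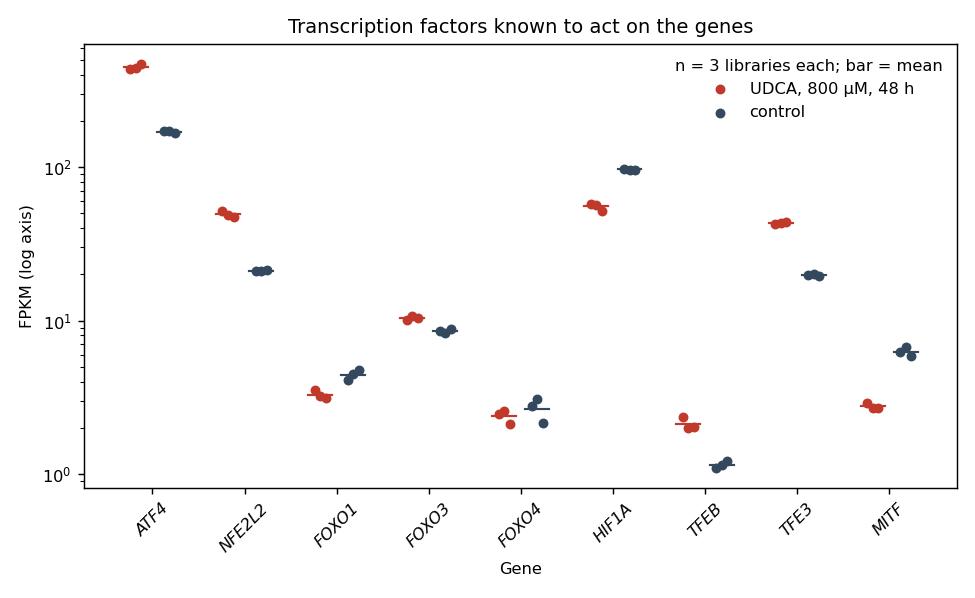
FPKM of the 9 transcription factor genes in each library on a log axis, UDCA libraries left of control libraries, with a bar at the mean of 3 libraries. ATF4, NFE2L2, FOXO3, TFEB and TFE3 stand higher in UDCA, FOXO1, HIF1A and MITF lower, and the FOXO4 libraries overlap.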

How the data were processed

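PolyA libraries (Illumina TruSeq, per the labels' protocols) were made from 3 UDCA-treated and 3 control LN229 samples, 1 library each. The submitters' processing notes list HISAT2, Bowtie2 2.0.6 and GRCh38 without saying what each did. Which program counted reads, how strand was treated and what was filtered is not stated in those notes or the labels. FPKM is the unit of the deposited values, made by the authors. The unit was inferred from the values: times the merged exon length in GENCODE 29 (Ensembl 94), 100% of values per library were whole reads (or read pairs) within 0.01, and these whole numbers give the depth. Intervals and floors of 3 reads cover counting error only.

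The test was limma 3.58.1 (limma-trend, R 4.3.3) on log2(FPKM + 1), group as the only term, 2-sided, over the 14380 genes that reached 1 FPKM in 3 or more of the 6 libraries, Benjamini-Hochberg adjusted over all of them at 0.05. Log2 changes are UDCA minus control on that scale, which understates changes of low genes; folds are ratios of mean FPKM. Tables, exact permutation tests and plots used Python 3.11.15, pandas 2.3.3, scipy 1.17.1 and matplotlib 3.10.9. The fit was tested on simulated data, where it recovered small changes less often than large ones and also called some unchanged genes. Few genes were changed in the simulation, whereas 80.8% of genes tested were called here. It therefore does not check the fit under so broad a change.

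The 10 genes, the lists and the tests were chosen with earlier results of these data known. Named genes are the 10, every tested gene of lists with 5 or fewer tested, the 3 called genes of largest change in longer lists, and the 3 profiles nearest to the most changed gene; further genes, named to spell out small counts or beside a paralogue, were chosen after their values were seen. Within a group, chi-square per degree of freedom between library pairs was 1.67 to 2.73 (genes of 20 or more reads), UDCA replicate 3 being furthest from the other UDCA libraries. This is more than counting error alone, but it cannot tell whether libraries stem from independent cultures. Each library was counted as 1 sample. Overlaps of exons are from GENCODE 29. Of the listed genes, 2 are not reported here, and the list counts leave them out.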

Additional observations from a re-analysis of the deposited data

How the results depend on the processing

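The alternatives were quantile normalization, median-ratio scaling, totals without mitochondrial genes, testing without the minimum level, 0.1 as pseudocount, a replicate block, voom on recovered reads, and leaving out each library in turn. Under these 13 settings the 9 tested genes kept their direction and their calls (5 higher and 4 lower); SESN2 ranged from 3.26 to 3.53, RRAGD from 2.53 to 2.93, FLCN from 1.58 to 2.27, RRAGC from 1.18 to 1.58, DDIT4 from 0.68 to 0.81, RPTOR from -0.37 to -0.25, SESN1 from -0.64 to -0.36, DEPTOR from -1.42 to -0.59 and SESN3 from -3.14 to -2.19 on the log2 scale. The largest sizes of the low genes came with voom, which adds no pseudocount of 1. Genes called numbered 11218 to 14451 over these settings, against 11624. The 14451 came without the minimum level, where 33890 genes were tested, against 14380 in the main fit. The median gene changed by 0.02 with median-ratio scaling, against 0.10. The replicate numbers are not stated to pair libraries, and deviations of same-numbered libraries correlated at 0.0143, -0.0012 and 0.0072. No library correlated best with its own number. With the replicate block 11503 genes and the same 9 of the set were called. MAPKAP1 (adjusted p = 0.0849, limma), PRKAG1 (0.0555) and TBC1D7 (0.0577) were not called with that block. Of 806 values of the 62 other list genes, 763 kept direction and side of the threshold, 24 lost a call, 8 gained one and 11 reversed. MAPKAP1 lost its call in 10 settings (adjusted p up to 0.929), PRKAG1 in 9 besides a reversal (up to 0.745) and TBC1D7 in 5 (up to 0.0826). ATG13 was called in 3 settings (down to 0.0104). Reversals were all near 0: LAMTOR5 at -0.031 with quantile normalization and -0.029 with median-ratio scaling, and PRKAG1 at -0.010 with median-ratio scaling. Leaving out single libraries, LAMTOR5 ranged from -0.030 to 0.11, NPRL3 from -0.085 to 0.0036, STK11 from -0.033 to 0.014 and TELO2 from -0.018 to 0.019. The cause was not tested. Depth limits CASTOR1, at 15 and 16 reads, and DEPTOR, at 62 and 173 reads in UDCA and control.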
